A study of Mus musculus with 4 samples.

Results

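Stretches of m6A that ran without a break from coding sequence (CDS) into the 3' UTR of the same gene were described in mouse embryonic fibroblasts (MEFs) with E1A and HRasV12, a pair of oncogenes. The deposited peaks of each m6A-eCLIP library over its input were joined wherever they touched on the same strand, and a stretch was kept when it held a CDS peak and a 3' UTR peak of the same gene. The control list held 523 such stretches among 8029 joined stretches, or 6.51% (exact 95% interval 5.98 to 7.08). The Mettl3 knockdown list held 453 among 7827, or 5.79% (5.28 to 6.33). The spanning stretches took 14.5% of the 15439 control peaks and 13.6% of the 15417 knockdown peaks.

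Control cells carried shLuc, a control shRNA, and knockdown cells an shRNA to Mettl3, which encodes the enzyme that writes m6A. All cells had both oncogenes and had been given doxorubicin (0.2 µg/ml, 6 h), which damages DNA, so no untreated cells were compared. In m6A-eCLIP, RNA fragments are crosslinked to an m6A antibody, and a pile-up of fragments over input marks a methylated stretch. The m6A libraries were made from polyA RNA and the inputs from total RNA. With 1 m6A and 1 input library for each condition, differences were not checked by replicates, and every interval is for counting error alone.

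N6-methyladenosine is written onto pre-mRNA by a complex of Mettl3 and Mettl14 with adaptor proteins. In mammalian mRNA it is known to be concentrated around the stop codon and in long internal exons. Reader proteins of the YTH family bind it and can direct the mRNA to decay.

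Peaks are listed by the authors if their log2 fold against input exceeds 3, and the −log10 p is limited to 400. A stretch therefore ends where the fold drops under that limit, not where enrichment stops. Read depth was not analysed here. Of control peaks 8.67% and of knockdown peaks 10.1% had a linear fold that was a whole multiple of 1 shared step (1.17 and 0.986, within 0.0001). Among spanning stretches, the highest piece lay on that step in 2.87% of the control and 5.74% of the knockdown members. The fibroblast label could not be checked on peaks: 2 of 10 fibroblast markers carried a control peak and 3 a knockdown peak. Of 7 haematopoietic, 5 epithelial and 4 endothelial markers none did in either list, and of 5 neural markers 1 did in the control against 3 in the knockdown list.

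The border between the last CDS piece and the first 3' UTR piece is a border between peaks and only approximates the stop codon. In 305 pairs of spanning stretches matched 1 to 1 between the lists, the border fell on the same base in 22 and within 25 bases in 231, with a median difference of 8 bases. Of 283 CDS pieces that shared bases with a 3' UTR piece of the other list, 0 lay wholly inside 3' UTR pieces, whereas 68 of 332 3' UTR pieces lay wholly inside CDS pieces of the other list. On this count a piece holding both kinds of base is taken to be labelled CDS, which would put the stop codon inside or at the end of the last CDS piece. That piece had a median length of 139.5 bases in the control list against 139 in the knockdown list. A peak that covered the stop codon alone, without a 3' UTR piece beside it, would then count as CDS and give no member.

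By the rule every ordered member covers the border, so cover that peaks there was fixed in advance. All joined control stretches had a median length of 227 bases. The median member of the control list was 354 bases long (quartiles 285.5 and 449) and consisted of 3 pieces. Its CDS side covered 170 bases (128.5 to 239.5) and its 3' UTR side 160 bases (117 to 225). In the knockdown list the median length was 361 bases, with 172 bases of CDS and 162 of 3' UTR. By peak label both sides were thus nearly equal in length in both libraries. The CDS side was the longer one in 51.4% of control members (47.1 to 55.8) and 53.6% of knockdown members (48.9 to 58.3). If the last CDS piece also holds 3' UTR bases, the CDS side is overstated by an unknown length, and the stretch is not centred on the stop codon itself. Lengths ran from 51 to 951 bases for control members and from 37 to 953 for knockdown members.

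The highest piece of a stretch was more often labelled 3' UTR than CDS. This was so in 322 of 523 control members, or 61.6% (57.2 to 65.8), and in 268 of 453 knockdown members, or 59.2% (54.5 to 63.7). In the control list the largest log2 fold over input had a median of 4.0 on the 3' UTR side and 3.80 on the CDS side, and in the knockdown list 4.07 and 3.88. Control members held 1292 3' UTR pieces against 932 CDS pieces, and these shares and largest folds make no allowance for that. The mean fold by length was higher on the 3' UTR side in 60.4% of control members (56.1 to 64.6). In knockdown members it was so in 57% (52.3 to 61.6). The highest piece was centred a median of 19.5 bases past the border in the control list against 14 bases past it in the knockdown list. It lay within 100 bases of the border in 73.6% of control members (69.6 to 77.4) and 72.8% of knockdown members (68.4 to 76.9). Since each ordered member crosses the border, part of this nearness follows from the rule and the lengths of the stretches.

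**Figure D1:**
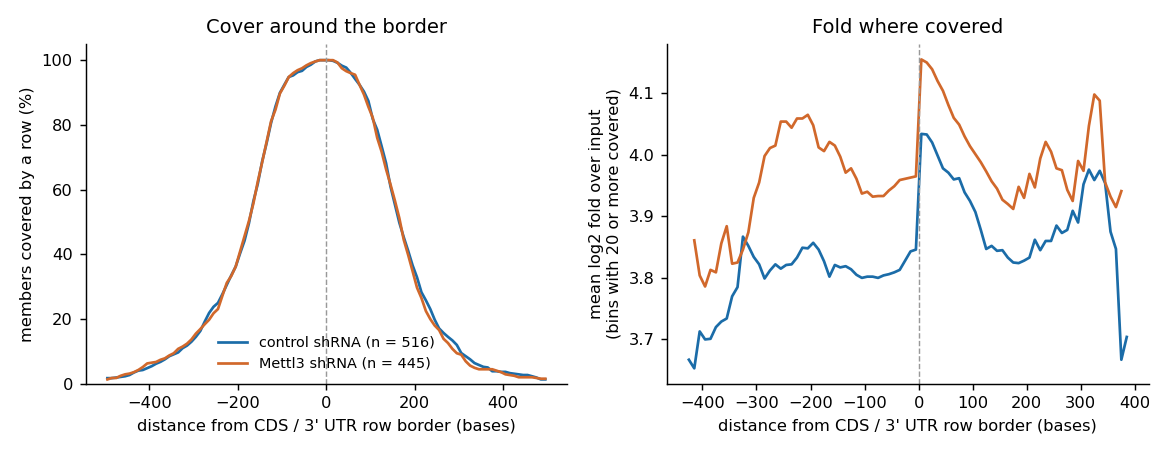
Left: share of members, in percent, covered by a peak in 10-base bins by distance from the CDS / 3' UTR border (negative in CDS), for the 516 control and 445 knockdown members whose pieces run in the order CDS then 3' UTR. Right: mean log2 fold over input of the covering pieces, in bins with 20 or more covered members; the cover curves nearly coincide, while the knockdown fold runs above the control fold in each bin within 200 bases of the border, as means over different members.

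Cover fell off on both sides of the border, which the rule itself brings about, somewhat sooner past it than before it. At 190 to 200 bases before the border 40.3% of control members were covered, and at 190 to 200 bases past it 36.6% were. For knockdown members these shares were 40.9% and 34.8%. In the 10 bases past the border the mean log2 fold was 4.03 for control and 4.16 for knockdown members, up from 3.85 and 3.96 in the 10 bases before it. The plot of cover and fold around the border shows this step in both libraries. These means are over different members in each library, and on bases shared by matched stretches the knockdown was not the higher one past the border (median of knockdown minus control −0.07).

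Pieces of 7 control and 8 knockdown members did not run in the order CDS then 3' UTR. B3gnt2, Fsbp, Gemin4 and Kat14, named after their values were seen, did so in both lists. Of the 516 ordered control members, 506 had a single RefSeq gene of the same symbol on the same chromosome (GRCm38.p6), and 500 of these lay wholly inside it. The border stood a median of 1.82 kb before the annotated end of the gene (quartiles 0.898 and 3.22) in the control list and 1.76 kb for knockdown members, any introns in the 3' UTR included.

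Most genes with CDS and 3' UTR peaks had them joined, by a narrow margin. In the control list 989 genes carried CDS and 3' UTR peaks and 523 of them, or 52.9%, had a spanning stretch. In the knockdown list 871 genes did and 452 of them, or 51.9%, had one. Of the 466 remaining control genes, the closest CDS and 3' UTR peaks were 1 to 10 bases apart in 1, 11 to 50 in 37, 51 to 200 in 99 and more than 200 in 329. The nearest gene outside the rule was Lmtk3 in the control list, at 7 bases, and Sco2 in the knockdown list, at 1 base. Mdm2, the ubiquitin ligase that restrains p53, was outside with gaps of 112 and 107 bases. The annotated gene was shorter for members: 22.0 kb at the median for control members, against 28.1 kb for all genes with control peaks and 32.9 kb for genes with unjoined CDS and 3' UTR peaks. Zinc finger genes whose symbol starts with Zfp, counted after values were seen, made up 6.69% of control members (4.71 to 9.18), 5.77% of all genes with control peaks (5.13 to 6.47) and 10.3% of genes with unjoined CDS and 3' UTR peaks (7.69 to 13.4).

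Across both lists 643 genes had a spanning stretch, and 332 had one in each. The members with the largest control folds over input belonged to genes of unlike function. Tlr4, the receptor for bacterial lipopolysaccharide, stood at a log2 fold of 6.29, in a CDS piece on the shared step with −log10 p of 62.3, and its place in the knockdown list was taken by a CDS stretch at 5.33. Slc35e1, a gene of the nucleotide-sugar transporter family, reached 6.29 in the control against 6.96 in the knockdown list, both in the 3' UTR, at chromosome 8, 72483322 to 72483834 (mm10, minus strand) in the control. Sh3pxd2a, a scaffold of invadopodia, stood at 5.94 and 6.55. The stretch of 1600012H06Rik stood at 5.92 in the control and met a CDS stretch of 6.42 in the knockdown list. Jun followed with 5.88 and 6.31. Of these 5 genes, Tlr4 alone had the higher fold in the control list.

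In the knockdown list the largest folds after Slc35e1 lay in Kcnj4, an inwardly rectifying potassium channel gene (6.91, control 5.39), Efnb2, which encodes the ephrin ligand ephrin-B2 (6.77, control 5.18), and Zfp282 (6.74, control 5.72). The Zfp282 value lay on the shared step. Sh3pxd2a completed the 5.

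The longest stretch in both lists belonged to Chd6, a chromatin remodelling gene. It ran over 951 bases in the control list, at chromosome 2, 160949207 to 160950157 (minus strand), and over 953 in the knockdown list. Its CDS side took 866 and 871 of those bases, with a largest fold of 4.09 and 4.74. Klf9, a Krüppel-like transcription factor gene, was the reverse case, with 745 of 941 bases in the 3' UTR in the control against 699 of 908 in the knockdown list. Its largest fold was 4.37 and 4.39, so here the libraries gave nearly the same value. Wbp1l spanned 932 and 872 bases, and Secisbp2l, related to the selenoprotein synthesis factor Secisbp2, spanned 893 and 874. The stretches of Zfp354c (902 bases) and the poly(A) polymerase gene Tent5b (899 bases) in the control met shorter ones in the knockdown list, of 567 and 396 bases. For Ado, a thiol dioxygenase gene, the knockdown stretch was the longer, with 846 against 422 bases. In Zfp354c, Tent5b and Ado the longer stretch also lay over a separate CDS stretch of the other list, so the lengths differ in part by a gap between peaks.

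**Figure D2:**
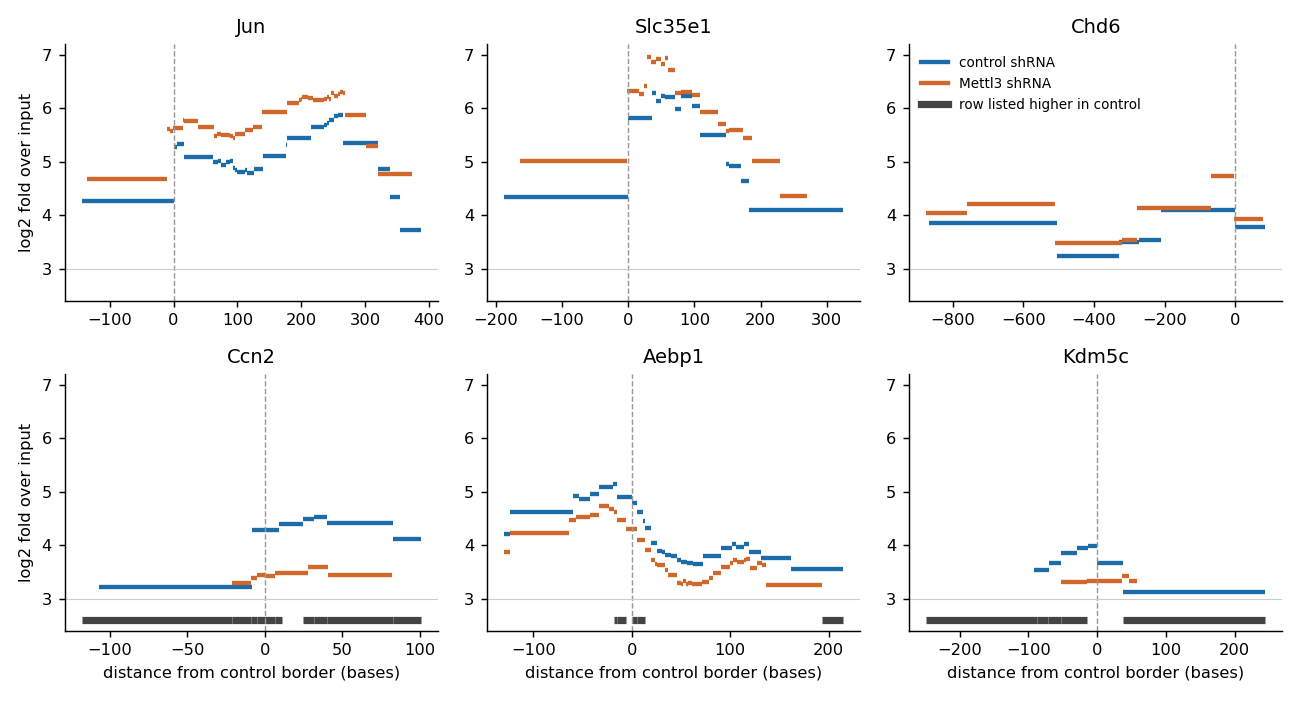
Log2 fold over input of every deposited piece of 6 member genes by distance in bases from the control border (dashed; CDS to the left), for control shRNA (blue) and Mettl3 shRNA (orange), with the peaks listed as higher in the control in the authors' deposited table as grey bars under the limit of 3 (thin line). Jun and Slc35e1 lie higher in the knockdown list over most of their length. Ccn2, Aebp1 and Kdm5c lie higher in the control over most of the bases that both lists cover.

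Immediate early genes were frequent among members. These genes respond within minutes to growth factor or stress signals without new protein synthesis, and most encode transcription factors with short-lived mRNA. Control peaks lay in 26 of 34 listed genes, and 12 of the 26, or 46.2%, had a spanning stretch, while 11% of all 4763 genes with control peaks did. In the knockdown list 12 of 25 did, or 48.0%, beside 9.72% of all 4648 genes. Both CDS and 3' UTR peaks, which the rule needs, lay in 14 of the 26 and 16 of the 25 genes. Of all genes with peaks, 989 of 4763 in the control and 871 of 4648 in the knockdown list had both. Among genes with both kinds, 12 of 14 and 12 of 16 were members, beside 52.9% and 51.9% of all such genes. The same 11 genes were members in both lists, with Btg1 added in the control and Srf in the knockdown list. None of the 12 control members held a peak listed as higher in the control in the authors' deposited table. Only 8.99% of all control members did, so among 12 genes this count does not set the group apart.

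Among the AP-1 subunits, Jun had its largest fold in the 3' UTR in both libraries, 259 bases past the border in the control against 274 in the knockdown list. Its stretch covered 532 bases at chromosome 4, 95049850 to 95050381 (minus strand), in 30 pieces in the control and 509 bases in 38 pieces in the knockdown list. Jund stood at 5.87 in the control against 6.30 in the knockdown list, and Junb at 4.79 and 4.98. Fosl2 stood at 5.07 and 4.90, and Fosb at 4.21 and 3.88. The 3 Jun genes were thus higher in the knockdown list and the 2 Fos genes in the control list, by differences of at most 0.43.

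The other immediate early members in both lists differed by less than 0.5 between the libraries. The zinc finger transcription factor gene Egr1 had 4.77 in the control against 4.79 in the knockdown list, and Myc, the growth regulator, 5.26 and 5.0. Ier3 had 4.12 and 4.06, Ier5 had 5.02 and 5.50, and Ier5l had 5.61 and 5.95. Zfp36l2, whose protein binds AU-rich elements and promotes mRNA decay, had 5.43 and 5.73. The control stretch of Btg1 (4.63) met a CDS stretch of 4.70 in the knockdown list, and the knockdown stretch of Srf (4.35) met a CDS stretch of 3.28 in the control list.

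**Figure D3:**
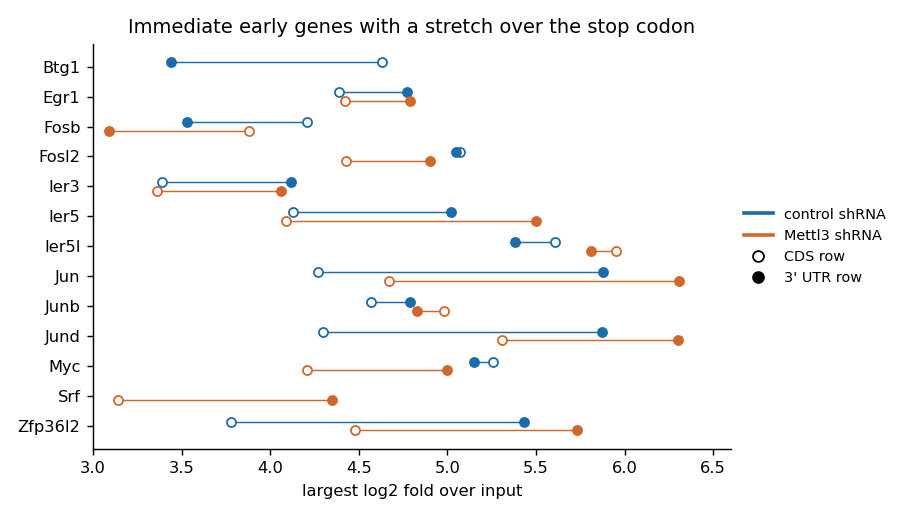
Largest log2 fold over input of the CDS piece (open circle) and of the 3' UTR piece (filled circle) in each spanning stretch of an immediate early gene, for control shRNA (blue) and Mettl3 shRNA (orange); Btg1 and Srf were members in 1 list each. The 3' UTR piece is far above the CDS piece in both lists for Jun, Jund, Ier5 and Zfp36l2.

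The counts of the other gene groups are to be read beside the 11% of all genes with control peaks and 9.72% of all genes with knockdown peaks that were members. Each group held at most 5 members, so 1 gene more or less moves its share by several percent. Of the MAP kinase and ERK feedback genes 5 of the 24 with control peaks (20.8%) and 4 of the 25 with knockdown peaks (16%) were members. The ERK phosphatase gene Dusp4 stood at 4.91 and 4.64 and the Ras exchange factor gene Sos1 at 4.53 and 4.82 in control and knockdown. Spry4, a feedback inhibitor, was a member in the control (4.12) and Spry1 in the knockdown list (4.77), and each met a CDS stretch of 4.38 in the other list. Of the cytokine group 4 of 18 (22.2%) and 3 of 18 genes (16.7%) were members. They were the receptor genes Lifr (5.26 and 5.50, the knockdown value on the shared step) and Il6st (4.27 and 4.30), the SOCS gene Socs6 (5.04 and 4.99), and in the control alone their ligand gene Lif, at 4.41 against a knockdown CDS stretch of 3.29. Among the TGF-beta and BMP genes (2 of 16, or 12.5%, and 1 of 17, or 5.88%), the receptor gene Acvr1 had 5.07 and 4.75, and Bmpr1a had 4.57 in the control against a CDS stretch of 3.62. Of the Hippo genes, 2 of 13 in each list (15.4%), the protocadherin gene Fat1 had 3.65 and 3.57, and Ccn2 is described with the sites higher in the control.

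Of the histone methyltransferase and demethylase genes 4 of 30 (13.3%) were control members and 5 of 28 (17.9%) knockdown members. The histone methyltransferase gene Ehmt1 stood at 5.08 and 4.69 and Kmt2a at 4.59 and 4.15, both higher in the control list. Setd5 stood at 5.41 and 6.00. The demethylase gene Kdm2b was a member in the knockdown list alone (5.0), over a control CDS stretch of 4.59, and its pieces did not run in the order CDS then 3' UTR. Ubiquitin genes gave 3 of 23 (13%) and 1 of 22 (4.55%). The adaptor gene Spop had 5.8 in the control against a knockdown 3' UTR stretch of 6.75, and Fbxo11 had 4.92 and 4.22. The deubiquitinase gene Usp15 had 4.13 in the control list, where no knockdown stretch lay.

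In the p53 response, the shares of targets and regulators rest on few genes, and a difference between them was not tested. Of 20 p53 targets with control peaks 1 (5%) was a member, Fbxw7, an F-box adaptor gene, at 5.33 over 614 bases. In the knockdown list 1 of 15 (6.67%) was, the pro-apoptotic gene Bbc3 (Puma), at 4.87 against a control 3' UTR stretch of 4.83. Of the p53 regulators 3 of 14 (21.4%) were control members and 3 of 11 (27.3%) knockdown members, the same 3 genes: the acetyltransferase gene Ep300 (4.60 and 4.83), Ing1 (4.48 and 3.84) and the damage kinase gene Atm (3.79 and 4.02). None of the 15 DNA damage and repair genes with control peaks or the 18 with knockdown peaks had both CDS and 3' UTR peaks. That list could therefore hold no member, and Atm was counted with the regulators. No Wnt gene (of 17 and 19) or Notch gene (of 12 and 10) was a member. In each of these 2 groups only 2 genes in the control and 3 in the knockdown list had both kinds of peak. Of the m6A machinery, 2 of 10 genes were members in the control against 0 of 10 in the knockdown list. These were the writer-complex genes Cbll1 (4.07), with a knockdown CDS stretch of 3.94, and Virma (3.36), with no knockdown stretch and −log10 p of 25.3. The other groups held 1 member each in both lists. These were Tnfrsf1a (3.90 and 4.45) of 13 and 11 apoptosis genes with peaks (7.69% and 9.09%), and Tnrc6b (3.54 and 3.83) of 13 RNA silencing genes in each list (7.69%). E2f3 (5.03 and 5.41) was 1 of 5 and 4 cell cycle genes (20% and 25%). The collagen gene Col5a1 (4.0 and 3.73) was 1 of 9 and 10 matrix genes (11.1% and 10%). The listed cytosolic ribosomal protein and oxidative phosphorylation genes could hold no control member, since none had a control peak, and 1 ribosomal protein gene had a knockdown peak.

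How far the spanning stretches of both libraries coincided was asked next. A spanning stretch of the knockdown list overlapped 330 of the 523 control members, or 63.1% (58.8 to 67.2). A spanning stretch of the control list overlapped 330 of the 453 knockdown members, or 72.8% (68.5 to 76.9). A further 154 control members and 109 knockdown members met a stretch that did not span. Of 107 ordered control members met by CDS stretches alone, 87 were covered by them on both sides of the control border, and of 32 met by 3' UTR stretches alone, 23 were. Counting any stretch that covers both sides of the border, 86.4% of ordered control members (83.2 to 89.3) and 93.7% of ordered knockdown members (91.0 to 95.8) had a counterpart. The shares of 63.1% and 86.4% differ by members whose counterpart crosses the border but carries another label or division of peaks.

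Any stretch of the other list overlapped 92.5% of control members (89.9 to 94.6), beside 73.2% of all joined control stretches, and 96.9% of knockdown members (94.9 to 98.3), beside 75.7% of all joined knockdown stretches. Members were longer and stronger than other stretches, and the rule itself asks for at least 2 pieces. Control stretches in CDS alone had a median of 244 bases and a largest fold of 3.60, and those in the 3' UTR alone 199 bases and 3.63, against 354 and 4.22 for members. Among stretches of 2 or more pieces with a length within the quartiles of the members, a comparison added after seeing the data, the overlap was 96.6% for members (93.6 to 98.4), 96.1% for CDS stretches (94.4 to 97.4) and 93.6% for 3' UTR stretches (90.0 to 96.2). At like length the overlap of members was therefore near that of the others.

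No stretch of the other list lay over 39 control members, or 7.46% (5.36 to 10.1), and 14 knockdown members, or 3.09% (1.70 to 5.13). These were weaker than shared members. Their largest fold had a median of 3.48 for control and 3.67 for knockdown members, against 4.37 and 4.45 for members that met a spanning stretch. The strongest, named after their values were seen, were Rpp25 (4.22) and Usp15 in the control and Adgrb2 (5.30, on the shared step) and E430018J23Rik (4.80) in the knockdown list.

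Folds were then compared in 307 pairs of spanning stretches that met 1 to 1. The largest log2 fold had a median of 4.38 in the control against 4.47 in the knockdown list, and the median of knockdown minus control was 0.06 (quartiles −0.19 and 0.38). The knockdown was higher by at least 0.5 in 54 pairs, or 17.6%, beside 20.4% of all 5492 stretches matched 1 to 1. The control was higher by at least 0.5 in 26 pairs, or 8.47%, beside 12.7% of all. Neither share of the spanning pairs exceeded that of all matched stretches.

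The largest differences in each direction can be read from the plot of matched stretches. With the knockdown higher they were Zfp334 (control 4.71, knockdown 6.52), Ccnt2, which encodes cyclin T2 of the elongation factor P-TEFb (4.54 and 6.30), Efnb2, Kcnj4 and Zfp629 (4.80 and 6.27). With the control higher they were Ddx20, a helicase gene of the SMN complex (5.44 and 3.77), Ubtd1 (4.92 and 3.52), Phf23 (4.87 and 3.58), Nfya, a subunit gene of the transcription factor NF-Y (4.43 and 3.39), and Ccn2 (4.52 and 3.59). Averaged over the stretch by length, the knockdown minus control difference was −0.36 for Ccn2, −0.49 for Phf23, −0.48 for Ubtd1, −0.46 for Nfya and 0.26 for Zfp334, smaller for all 5 than at the highest piece. By the same average it was −0.62 for Ddx20, 0.70 for Ccnt2, 0.62 for Zfp629, 0.93 for Efnb2 and 1.16 for Kcnj4.

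**Figure D4:**
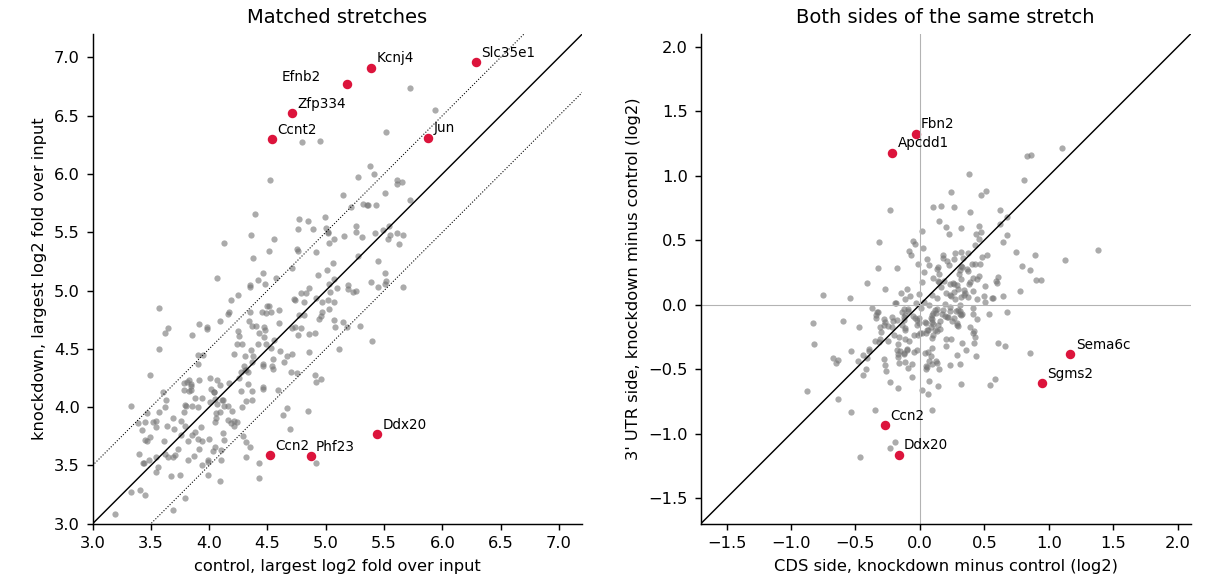
Left: largest log2 fold over input in the control (horizontal) and knockdown list (vertical) for spanning stretches matched 1 to 1 (points), with the line of equality and dotted lines 0.5 to either side. Right: mean knockdown minus control log2 fold on the CDS side (horizontal) and on the 3' UTR side (vertical) of 303 of these stretches; 196 points lie under the line of equality.

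The sides of a stretch did not differ alike. Over the bases that both libraries cover, in 303 ordered pairs with such bases on both sides of the control border, knockdown minus control had a median of 0.12 on the CDS side (quartiles −0.12 and 0.33) and −0.07 on the 3' UTR side (−0.29 and 0.20). The 3' UTR side was the lower one in 196 of the 303 pairs, or 64.7% (59.0 to 70.1), with a median of −0.16 for the 3' UTR side less the CDS side. Split at the knockdown border it was 184 of 305 and −0.11. Stretches of a single kind leaned the same way when split in their middle: the downstream part was the lower one in 57.4% of 1007 CDS pairs (54.3 to 60.5) and 59.8% of 371 3' UTR pairs (54.7 to 64.9), against 63.6% of spanning pairs split in their middle (57.9 to 69.0). The interval of spanning pairs split in their middle overlaps those of CDS and of 3' UTR pairs, so no excess over either is shown, and this comparison was chosen after seeing the data.

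Named after their values were seen, Sgms2, a sphingomyelin synthase gene, and Sema6c, a semaphorin gene, showed the widest contrast. Sgms2 had mean folds of 3.04 in the control against 3.99 in the knockdown on its CDS side, and 4.43 and 3.82 on its 3' UTR side. Sema6c had 3.41 and 4.58 on its CDS side and 4.70 and 4.31 on its 3' UTR side. Apcdd1 went the other way, with 5.28 and 5.07 in CDS and 3.62 and 4.80 in the 3' UTR. Fbn2, encoding fibrillin 2, also did, with 4.58 and 4.55 in CDS and 4.95 and 6.27 in the 3' UTR, the last value in a stretch whose highest piece lay on the shared step.

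The ends of the stretches moved little. In the knockdown list the CDS end lay a median of 3 bases further upstream and the 3' UTR end a median of 9 bases further upstream, so that the 3' UTR end lay upstream in 226 pairs and downstream in 72. Over all 5492 matched stretches the medians were 3 and 8 bases upstream, and the 3' end lay upstream in 68.0%, against 73.6% of the spanning pairs. The CDS end stayed within 10 bases in 62.5% of spanning pairs and the 3' UTR end in 38.8%, beside 46.6% and 38.9% of all matched stretches.

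A few 3' UTR ends moved far. The knockdown stretch stopped 211 bases short of the control one in Bag4, a co-chaperone gene, 187 in Kdm5c, 177 in the mitochondrial ribosomal protein gene Mrpl12, 170 in Prrg4 and 153 in Slc35e4. In Bag4 the 3' UTR side covered 402 bases in the control against 194 in the knockdown list, and in Mrpl12 233 and 65. The reverse was found in Zfp568 (161 bases further in the knockdown list), Zfp213 (160), Polr3f, an RNA polymerase III subunit gene (136), Bysl (117) and Adnp (109). In Bysl and Polr3f the knockdown stretch was longer although its largest fold was lower (3.66 against 4.35, and 3.93 against 4.63). In each of these genes the smallest fold in the longer stretch was near the limit of 3, from 3.01 in Mrpl12 to 3.23 in Adnp. A small difference in fold across that limit can add or drop a whole piece.

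The study's own search for Mettl3-dependent m6A is a list of 1851 peaks higher in the control. Of the 523 control members 47, or 8.99% (6.68 to 11.8), were overlapped by such a peak, beside 3.40% of all joined control stretches. The shares were 2.49% for CDS stretches (2.05 to 3.01) and 5.82% for 3' UTR stretches (4.80 to 6.99). Among stretches of 2 or more pieces and like length they were 8.37% for members (5.32 to 12.4), 3.08% for CDS (1.94 to 4.62) and 6.02% for 3' UTR stretches (3.48 to 9.58). In the control list the interval of members thus lay above that of CDS stretches and overlapped that of 3' UTR stretches. At like length those members were also stronger than the CDS stretches (median largest fold 4.24 against 4.07). In the knockdown list 4.64% of members (2.89 to 7) were overlapped, beside 1.23% of all joined stretches. At like length the shares there were 2.62% for members (0.967 to 5.62) and 0.873% for CDS stretches (0.321 to 1.89). For 3' UTR stretches the share was 4.69% (2.27 to 8.46), and the interval of members overlapped both others.

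**Figure D5:**
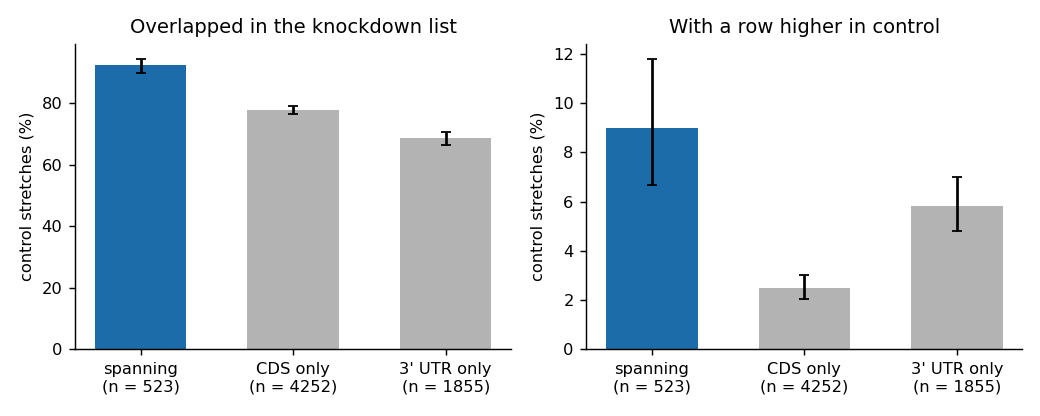
Share of control stretches, in percent with exact 95% intervals as error bars, overlapped by any knockdown stretch (left) and by a peak listed as higher in the control in the authors' deposited table (right), for spanning stretches (blue) and for stretches in CDS alone or in the 3' UTR alone (grey). Members lead in both panels, before any allowance for their greater length.

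Inside members most of these peaks were on the 3' UTR side. Of the 83 peaks of the authors' deposited table inside members, 63 were labelled 3' UTR and 20 CDS. Such a peak overlapped 68 of 1292 3' UTR pieces, or 5.26% (4.11 to 6.62), and 21 of 932 CDS pieces, or 2.25% (1.40 to 3.42). Pieces of 1 stretch are neighbouring slices of the same pile-up, and Ccn2 alone held 10 of the 83 peaks. These intervals treat pieces as independent and are therefore too narrow. A 3' UTR peak was present in 40 of the 47 members, a CDS peak in 13, and both in 6. Their log2 differences, as given by the authors' deposited table, had a median of 0.71 and reached from 0.50 to 1.58, and 17 members held a peak with p of at most 0.001. Past the stretch, within 200 bases of its 3' end, 31 control members had a peak of the gene listed as higher in the control. Within 200 bases before its 5' end 5 had one. The same was not counted for other stretches, so these counts do not set members apart. Of the 39 control members with no knockdown stretch, 25.6% (13.0 to 42.1) held such a peak, against 6.36% (3.98 to 9.56) of those that met a spanning stretch. Both groupings draw on the same control and knockdown libraries, so this contrast is in part built in and is no separate result.

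Ccn2, a matricellular protein gene and target of YAP, held more of them than any other member. Its stretch held 10 peaks of the authors' deposited table, 6 in the 3' UTR and 4 in CDS, whose listed log2 difference was 0.78 to 1.29, at p between 1.86e-15 and 1.27e-07. The stretch ran over 208 bases in the control list, at chromosome 10, 24597509 to 24597716 (plus strand), and 103 bases in the knockdown list. At 24597656 to 24597698 the control fold was 4.42 and the difference 0.98 in the authors' deposited table, which puts the knockdown at 3.44. The last control piece, at 24597699 to 24597716, stood at 4.12 with 1.29 in the authors' deposited table, which puts the knockdown at 2.82, under the limit of the list but still over input.

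Aebp1, whose product is a matrix protein, and Kdm5c, a histone H3K4 demethylase gene, each held 5 such peaks. For Aebp1 the differences were 0.50 to 0.66 in the authors' deposited table, on a stretch of 345 bases in the control against 323 in the knockdown list with largest folds of 5.15 and 4.73. For Kdm5c they were 0.52 to 0.82 in the authors' deposited table, 4 of them in CDS. Its stretch measured 337 bases in the control against 111 in the knockdown list, and the last control piece of 207 bases stood at 3.12, close to the limit. Its listed difference of 0.54 in the authors' deposited table puts the knockdown at 2.58 over that whole piece, under the limit of the list. The knockdown pieces that reached into its start stood at 3.42 and 3.33, above the control there. Averaged over the stretch by length, knockdown minus control was −0.03 for Kdm5c, against −0.57 at the highest piece.

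Larp1, which encodes a regulator of mRNAs for the translation machinery, and Tk1, the thymidine kinase gene, each held 4 such peaks, all of them 3' UTR. By the authors' deposited table Larp1 had 0.57 to 0.76 (p from 1.82e-06 to 0.0368) and Tk1 0.51 to 0.79 (p from 2.48e-20 to 2.42e-04). The Larp1 stretch had largest folds of 4.46 and 4.17. Tk1 had 4.39 in the control and met a 3' UTR stretch of 3.96 in the knockdown list. Ddx20 had 1 such peak, at 1.01 (p = 8.58e-04), and Fbxw7 1, at 0.92 (p = 0.0456), in the authors' deposited table. With its control fold of 5.33, the Fbxw7 piece would stand at 4.40 in the knockdown list.

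Where a listed peak had the ends of a control piece, control fold minus difference gives the knockdown fold at that piece. There were 42 such peaks in 32 members of the authors' deposited table. The resulting knockdown folds ran from 1.79 to 4.40 with a median of 3.08, and 19 of the 42 lay under the limit of 3. Values far under that limit could not arise, since the control fold had to exceed 3 and the listed differences reached no more than 1.58.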

How the data were processed

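Peaks of m6A-eCLIP over input from 2 m6A libraries were analysed, 1 per condition, with groups taken from the labels. Per the submitters' processing notes, UMI-tools 0.5.1 and cutadapt 2.7 were used with the build mm10. How reads were aligned, peaks called and libraries tested is not given in the sources used here. Per the file headers, the authors deposited each peak's log2 fold relative to input with its −log10 p-value, limited to 400, and, for the control against the knockdown library, a log2 fold change difference and a p-value. In 5 of 5 peaks with the same ends in all 3 lists the difference equalled control minus knockdown log2 fold within 0.0001.

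Peaks touching or overlapping on the same strand (gap 0) were joined. Positions are 1-based, from starts taken as 0-based. Stretches met when they shared 1 or more bases of 1 strand. Pairs that met no other stretch were matched 1 to 1. Intervals of shares are exact (Clopper-Pearson, 95%, by scipy 1.17.1) and treat stretches, pieces or genes as independent. Differences of at least 0.5 in log2 fold were counted, with no test, since there was 1 library per condition. Joining and matching were tested on simulated data. Members, gene lists and comparisons were chosen with earlier results of these data known. Named genes were the 5 with the largest folds, the 5 longest, the 5 with most peaks higher in the control, the 5 with the largest fold difference or 3' end shift in each direction, and up to 4 per gene list. Sequences were not used here. Python 3.11.15, pandas 2.3.3, numpy 2.4.6 and matplotlib 3.10.9 were used.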

Additional observations from a re-analysis of the deposited data

How the results depend on the processing

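Joining peaks across gaps of up to 10 or 50 bases left the number, sharing, side lengths and place of the highest piece within 1.5 times the reported counts and lengths and within the intervals of the shares. Restricting the lists to log2 folds from 3.5 up left 287 control and 272 knockdown members, and 65.1% of knockdown members shared; fewer peaks enter by construction. With −log10 p of at least 100 the highest piece lay in the 3' UTR in 66.2% of control members. With overlap by any stretch on both sides of the border, a setting chosen after seeing the data, sharing was 86.4% and 93.7%. Control members with a peak higher in the control came to 1.72% at a log2 difference of at least 1 and 3.25% at p of at most 0.001, since fewer peaks remain. With mean folds by length, 9.12% of pairs were higher in the knockdown and 3.91% in the control by 0.5 or more, and with largest folds 4.89% and 1.30% by 1 or more. Of the other results and settings, 60 stayed within those limits. For named genes, 15 differences crossed 0.5 with mean folds, 85 values under these 2 summaries did not, and none that had reached 0.5 changed sign. No paired analysis was possible because each condition had 1 library. Library depth was not analysed here, and enrichment under a log2 fold of 3 is not listed.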
